A study of Mus musculus with 19 samples.

Results

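The genes described here are 9 members of the death receptor pathway of apoptosis, chosen by name: the receptors Fas, Tnfrsf10b, Eda2r and Tnfrsf1a, the ligands Fasl and Tnfsf10, the adaptor Fadd, and the initiator caspases Casp8 and Casp9. All array probes whose RefSeq identifier maps to one of these symbols were taken, which gave 11 probes for 9 genes of the 20660 gene symbols with a probe. Transcripts were measured in the right lung lobe of 18 male MutaMouse animals about 12 weeks old, which all carry a bacterial lacZ transgene used for mutation assays. By oral gavage on 28 days in a row, the mice received olive oil alone (D0, 5 mice) or a mixture of 8 polycyclic aromatic hydrocarbons (PAHs) in olive oil, and the lobe was collected 72 h after dosing ended. The mixture was given at 15 (D1, 4 mice), 30 (D2, 5 mice) and 60 (D3, 4 mice) mg per kg per day, expressed as benzo[a]pyrene equivalents. Each value is a log2 ratio of lung RNA (Cy5, red) over a common reference RNA (Cy3, green), so it shows a gene's level relative to that reference and cannot be set against another gene's ratio.

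Death receptors are members of the tumour necrosis factor (TNF) receptor superfamily that carry an intracellular death domain. When a ligand binds, receptors such as those encoded by Fas and Tnfrsf10b recruit the adaptor FADD. It brings caspase 8 molecules together so that they activate each other and then the executioner caspases. Caspase 9 starts the other route, in which cytochrome c released from mitochondria assembles the apoptosome around APAF1. Several genes of the receptor route, among them Fas, Tnfrsf10b and Eda2r, are known targets of the tumour suppressor p53, which is activated by DNA damage such as the adducts that metabolised PAHs form.

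The median red signal of an array was 114 to 151.5 and the median green signal 65 to 93, with no saturated spot. Markers of alveolar type 2 and endothelial cells were far above the reference in every mouse (mean log2 ratios of 5.13 to 6.01 and 3.99 to 4.68). A list of 10 cardiac muscle genes ranged from 0.20 to 4.59 between mice, with a wide spread inside D1, D2 and D3 alike. The array labelled D2 Mouse 23 has an animal number among those of D1 and the group sizes of the methods differ from the labels. It was kept as labelled, and leaving it out or counting it in D1 changed no count of member probes called. On every slide the array column followed dose, and an effect of column cannot be told apart from one of dose.

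At the highest dose the receptor and the ligand of one signalling pair rose together. Tnfrsf10b, the receptor also called DR5, was 1.74-fold higher in D3 than in D0, and Tnfsf10, which encodes its ligand TRAIL, was 1.68-fold higher. The adaptor Fadd, the receptor Tnfrsf1a and the initiator caspase Casp8 were also higher at D3 by adjusted p, with changes below 1.5-fold. Fas, Fasl and Casp9 passed no threshold at any dose. A probe was called where the Benjamini-Hochberg adjusted p of the limma fit was at most 0.05 and the change at least 1.5-fold. At D3, 2 of the 10 tested probes were called, both higher, against 2.43% of all 30999 tested probes (1.21% higher). By adjusted p alone, 6 were higher and 0 lower, against 6.03% of all probes higher and 6.37% lower. Eda2r is among the 6 but passed the filter on dim probes through D3 alone, where it was high, so the count is given as a description.

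**Figure D1:**
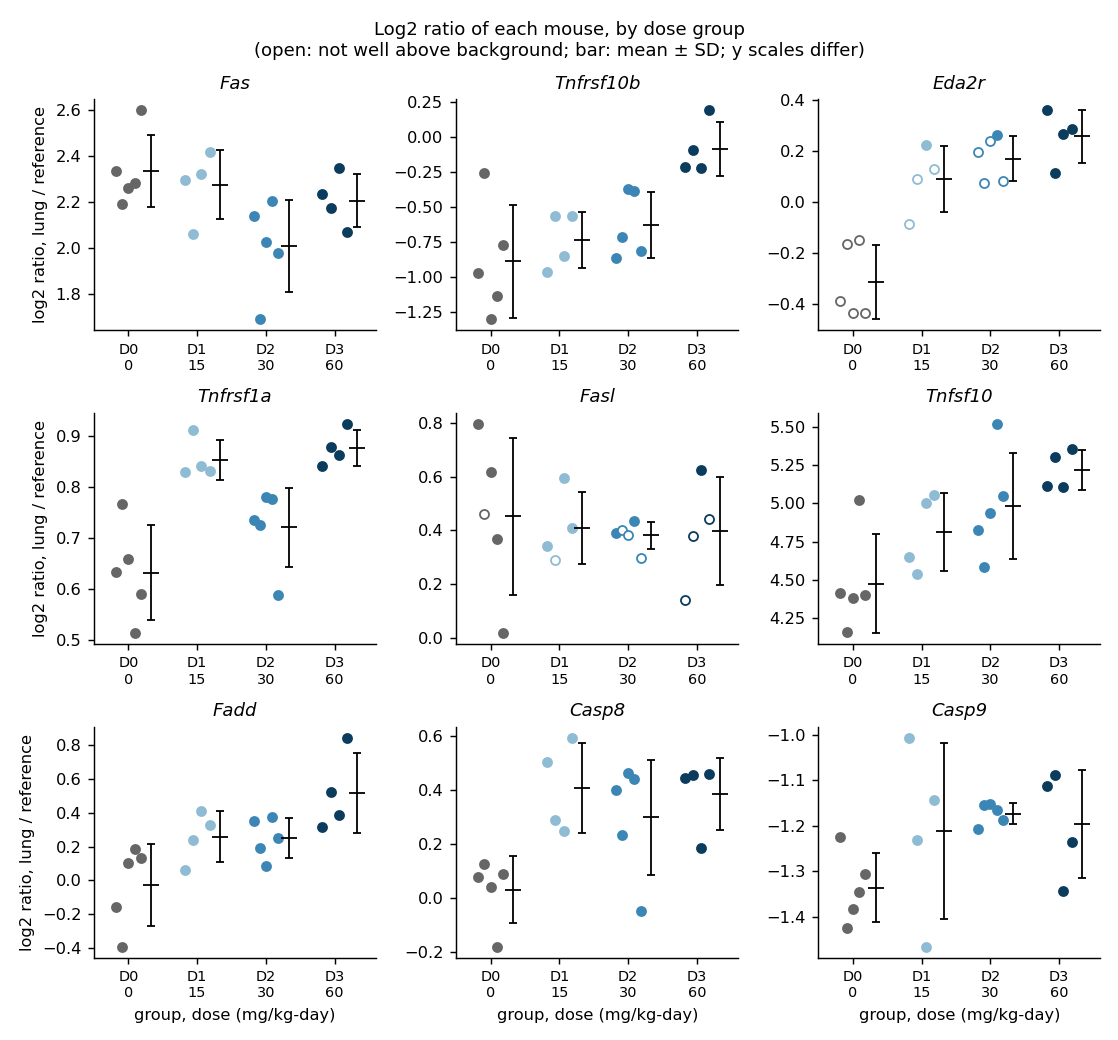
Log2 ratio of lung over reference RNA for each of 18 mice, by dose group (mg benzo[a]pyrene equivalents per kg per day), with 1 panel for the brightest probe of each gene. Open points are mice in which the probe was not well above background, and bars are the mean and SD of the group. All 4 D3 mice lay above all 5 D0 mice for Tnfrsf10b, Tnfsf10, Eda2r, Fadd, Casp8 and Tnfrsf1a. The second Tnfrsf1a probe, not drawn, overlapped, and Eda2r passed the filter on dim probes through D3 alone. The share of all tested probes without overlap was not counted.

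Tnfrsf10b had log2 ratios of -0.97, -0.26, -1.30, -1.14 and -0.77 in the D0 mice, and -0.22, -0.09, -0.22 and 0.19 in the D3 mice. The groups did not overlap, although D0 mouse 2, the highest control, lay close under the lowest D3 mice. D1 mice ranged from -0.96 to -0.56 and D2 mice from -0.86 to -0.37, both within the range of D0. The group means rose in the order of dose, from -0.89 ± 0.40 (SD, n = 5) in D0 over -0.73 ± 0.20 (n = 4) and -0.63 ± 0.23 (n = 5) to -0.08 ± 0.19 (n = 4) in D3. No difference between neighbouring groups passed the test (adjusted p = 0.678, 0.892 and 0.224 from the lowest to the highest step). The log2 change from D0 to D3 was 0.80 ± 0.17 (SE, adjusted p = 0.00464), the rank 187 among all tested probes by size of increase, and the linear trend over dose gave 0.80 from D0 to D3 (adjusted p = 0.00595). At D1 and D2 the log2 changes were 0.15 and 0.26 (adjusted p = 0.678 and 0.496).

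Tnfsf10 encodes TRAIL, the ligand that binds this receptor. Its log2 ratios were 4.41, 4.16, 4.38, 5.02 and 4.40 in D0 and 5.11, 5.31, 5.11 and 5.36 in D3. Again no D3 mouse overlapped D0, with D0 mouse 4 standing above the other controls. Of the D2 mice, with 4.58, 4.94, 5.52, 5.05 and 4.83, mouse 29 exceeded every D3 mouse. The means were 4.47 ± 0.32, 4.81 ± 0.26, 4.98 ± 0.35 and 5.22 ± 0.13 from D0 to D3, and again no difference between neighbouring groups passed (adjusted p = 0.288, 0.811 and 0.641). The log2 change at D3 was 0.75 ± 0.17 (SE, adjusted p = 0.0081), and the trend gave 0.71 (adjusted p = 0.0143). At D1 it was 0.34 (adjusted p = 0.288) and at D2 0.51 (adjusted p = 0.119). Without D0 mouse 4 the D2 change was 0.65 and passed both thresholds (adjusted p = 0.0336).

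With median centring of the ratios in place of loess, Tnfrsf10b (log2 change 0.93, adjusted p = 0.411) and Tnfsf10 (0.82, adjusted p = 0.683) kept their direction at D3 and lost the call. Under the same setting Fadd (0.61, adjusted p = 0.821), Casp8 (0.51, adjusted p = 0.841), the brighter Tnfrsf1a probe (0.45, adjusted p = 0.848) and Eda2r (adjusted p = 0.0576) no longer passed by adjusted p at D3 either, although none of these changes was smaller by more than 0.01. With the scanner software's background-subtracted signals Tnfsf10 also lost it (0.62, adjusted p = 0.0988). Within the 3 slides, each of which held all 4 groups, the D3 mean exceeded the D0 mean by 0.46, 1.21 and 0.94 for Tnfrsf10b and by 0.92, 0.62 and 0.78 for Tnfsf10. The D3 array of the third slide was the repeat array of mouse 35, whose other array lay on the second slide, so these differences share an animal. In the reference channel alone no tested probe of the 9 genes changed at any dose (adjusted p of 1 for each).

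**Figure D2:**
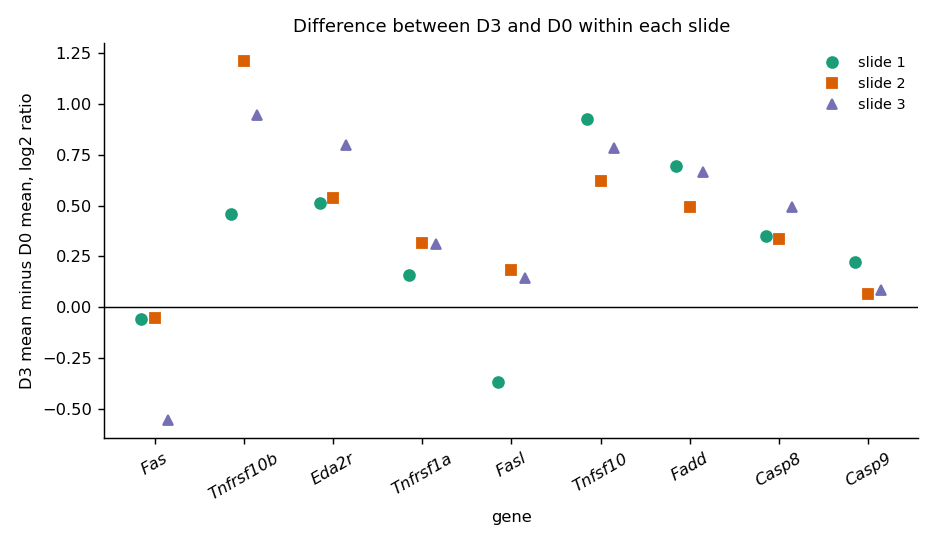
Difference of the mean log2 ratio between D3 and D0 within each of the 3 slides, for the brightest probe of each gene (slide 3 held 1 array of each group, and its D3 array came from mouse 35, which also had an array on slide 2). Tnfrsf10b, Tnfsf10, Eda2r, Fadd, Casp8, Tnfrsf1a and Casp9 lie above 0 on every slide, Fas lies below 0 on every slide, and Fasl changes sign.

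Among the other receptors, Eda2r, which binds the A2 form of ectodysplasin and lacks a death domain, was near background in most mice. Its brighter probe was well above background in 0 of 5 D0, 1 of 4 D1, 1 of 5 D2 and 4 of 4 D3 mice. It therefore entered the test through D3 alone, the group in which it was high, and most D0, D1 and D2 values lie near background. The measured log2 ratios were -0.39, -0.16, -0.44, -0.15 and -0.44 in D0, and 0.36, 0.11, 0.27 and 0.29 in D3. D1 mice lay between -0.09 and 0.22 and D2 mice between 0.07 and 0.26, so that every dosed mouse exceeded every control. The limma fit of the log2 ratios at D3 gave an adjusted p of 0.000322, which is only a description because the filter passed the probe through D3. At D3 the red signal was at least 1.37-fold higher than in D0, with the lowest signal well above background on each array, or the probe's own signal where higher, standing for D0. A probe can lie above that lowest signal without being well above background, so the bound rests on this choice of floor. For D1 and D2 no size of a difference is given, because most mice of these groups and all controls were not well above background. No difference between neighbouring dosed groups passed the test (adjusted p = 0.821 for D2 against D1 and 0.755 for D3 against D2). With the scanner software's background-subtracted signals Eda2r passed both thresholds at D1, D2 and D3. The controls were not well above background, so no size is read from those values and the pass is not taken as support. The other Eda2r probe was well above background in 1 D2 and 1 D3 mouse and was not tested. Its group means were -0.27, -0.14, -0.11 and 0.00 from D0 to D3.

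Tnfrsf1a, the main receptor for TNF, had 2 probes. The brighter one gave log2 ratios of 0.63, 0.77, 0.66, 0.51 and 0.59 in D0, 0.83, 0.91, 0.84 and 0.83 in D1, and 0.84, 0.88, 0.86 and 0.92 in D3. D2 fell back, with 0.73, 0.78, 0.78, 0.59 and 0.73, so that the levels did not follow the order of dose. D1 and D3 did not overlap D0, whereas D2 did. The log2 changes were 0.22 ± 0.07 at D1 (adjusted p = 0.0576), 0.09 ± 0.06 at D2 (adjusted p = 0.552) and 0.24 ± 0.07 at D3 (SE, adjusted p = 0.0189), and the differences of D2 from D1 (adjusted p = 0.526) and from D3 (adjusted p = 0.36) did not pass. At D3 the adjusted p reached 0.0601 when mouse 35 was left out, and it also missed the threshold without D0 mouse 4. The second probe gave 0.25, 0.01 and 0.19, and its change at D3 missed the threshold (adjusted p = 0.11).

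Fas, the receptor of Fas ligand, passed the test at no dose. Its log2 ratios ranged from 2.19 to 2.60 in D0, from 2.06 to 2.42 in D1, from 1.69 to 2.20 in D2 and from 2.07 to 2.35 in D3, so every dosed group overlapped the controls. The changes were -0.06, -0.33 and -0.13 (adjusted p = 0.815, 0.102 and 0.486). D2 was the lowest, with 5 of 5 mice below the D0 mean and a 95% interval of the level from 68.9% to 92.3% of D0 before adjustment. At D3 the interval was 78.4% to 107% of D0, which leaves out an increase of the size seen for Tnfrsf10b.

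Fasl, the ligand made mainly by natural killer (NK) and cytotoxic T cells, was dim. It was well above background in 4 of 5 D0, 3 of 4 D1, 2 of 5 D2 and 1 of 4 D3 mice, and entered the test through D0 alone. Its mean log2 ratio was 0.45 ± 0.29 in D0, 0.41 ± 0.13 in D1, 0.38 ± 0.05 in D2 and 0.40 ± 0.20 in D3. None of the changes passed (adjusted p = 0.891, 0.853 and 0.824), and the D3 change passed under none of 31 alternatives (lowest adjusted p = 0.294). No size is read from these changes, and a missed threshold does not show an unchanged level, because most D3 mice were not well above background. Of 13 probes for NK and cytotoxic T cell markers, 4 were called lower at D3 and 0 higher. Their mean log2 ratio per mouse ranged from 0.85 to 1.59 in D0, 0.45 to 0.92 in D1, 0.39 to 0.78 in D2 and 0.31 to 0.66 in D3 (Klrk1 and Xcl1 were not tested). Of 8 neutrophil marker probes, 6 were called higher at D3 and 1 more was lower by adjusted p alone (-0.46), with means of 1.19 to 1.75 in D0, 1.80 to 2.01 in D1, 1.65 to 2.27 in D2 and 1.88 to 3.05 in D3 (Ly6g was not tested). Of 8 endothelial marker probes 2 were called higher at D3, with means of 3.99 to 4.44 in D0 and 4.22 to 4.53 in D3. The changes of these probes at D3 ran from -0.21 to 0.73, with a median of 0.04. Of 12 alveolar macrophage marker probes 2 were called lower, with means of 2.89 to 3.18 in D0 and 2.59 to 2.74 in D3. Their changes at D3 went both ways, from -1.40 to 0.94, with a median of -0.29. Of 6 fibroblast marker probes 1 was called lower, with means of -0.18 to 0.12 in D0 and -0.51 to 0.05 in D3. The part of these shifts in the levels of Fasl, Tnfsf10 and the other members was not tested. In bulk lung RNA, fewer cells of a type and less RNA per cell cannot be told apart.

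The adaptor Fadd links receptors such as Fas to caspase 8. Its log2 ratios were -0.16, -0.39, 0.10, 0.19 and 0.13 in D0 and 0.31, 0.52, 0.38 and 0.84 in D3. All D3 mice lay above the controls, mouse 35 the farthest, while D1 (0.06 to 0.41) and D2 (0.08 to 0.37) overlapped D0. The log2 changes were 0.28 ± 0.12 at D1 (adjusted p = 0.199), 0.28 ± 0.12 at D2 (adjusted p = 0.259) and 0.54 ± 0.12 at D3 (SE, adjusted p = 0.0072), the last being 1.46-fold and so under the fold threshold. The differences within slides at D3 were 0.69, 0.49 and 0.66. With slide as a block the change was 0.61 and was called (adjusted p = 0.000144).

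Casp8, the caspase that FADD recruits, was higher at D3 by adjusted p, and no difference between neighbouring dosed groups passed (adjusted p = 0.802 and 0.815). The log2 ratios were 0.08, 0.13, 0.04, -0.18 and 0.09 in D0, 0.50, 0.29, 0.25 and 0.59 in D1, 0.23, 0.46, 0.44, -0.05 and 0.40 in D2, and 0.45, 0.46, 0.19 and 0.46 in D3. D1 and D3 lay wholly above D0, and in D2 mouse 30 lay among the controls. The log2 changes were 0.38 ± 0.11 at D1 (adjusted p = 0.0505), 0.27 ± 0.10 at D2 (adjusted p = 0.2) and 0.36 ± 0.11 at D3 (SE, adjusted p = 0.0361). The D3 change was 1.28-fold, and leaving out single mice gave 0.30 to 0.42 with adjusted p of 0.0179 to 0.1, above 0.05 without D0 mouse 1, 3 or 4 or D3 mouse 31, 32 or 35. At D1 single mice left out gave an adjusted p of 0.0271 to 0.145, and over 31 alternatives it lay between 0.022 and 0.572. The linear trend did not pass (0.27, adjusted p = 0.131).

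Casp9, the initiator of the mitochondrial route, passed the test at no dose. Its mean log2 ratio was -1.34 ± 0.08 in D0, -1.21 ± 0.19 in D1, -1.17 ± 0.02 in D2 and -1.20 ± 0.12 in D3. The changes were 0.12, 0.16 and 0.14 (adjusted p = 0.44, 0.346 and 0.302), and the interval at D3 was 97.7% to 124% of D0. All D2 mice lay above all controls, but by less than the test could call.

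**Figure D3:**
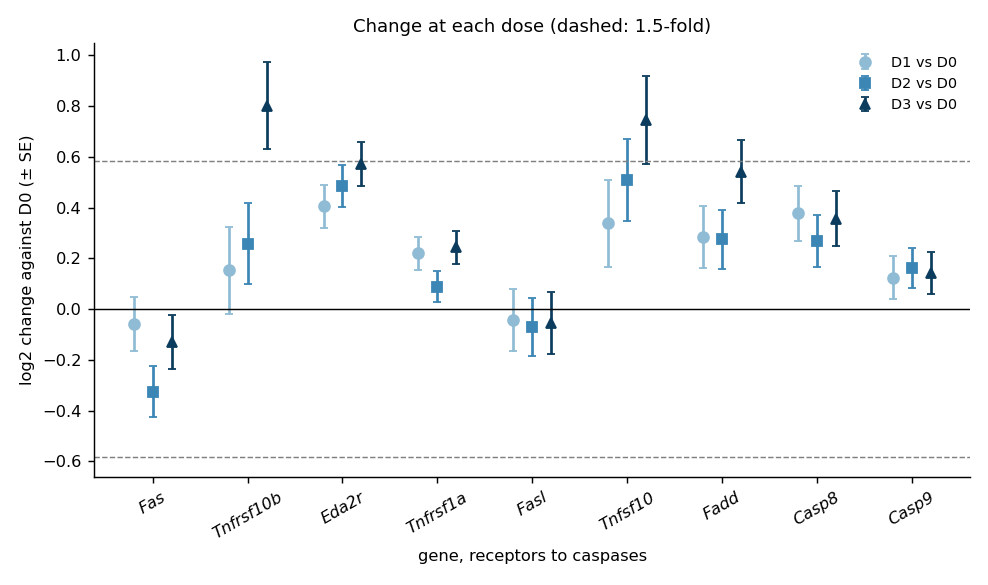
Log2 change against D0 at D1, D2 and D3 with its SE from the limma fit, for the brightest probe of each gene, ordered from receptors to caspases. Dashed lines mark 1.5-fold, which Tnfrsf10b (0.80) and Tnfsf10 (0.75) exceed at D3.

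At the lower doses no member was called by limma. At D1 0 of 10 probes were called, with 1.06% of all probes called, 5 had an unadjusted p under 0.05 (19.8% of all), and 1 (Eda2r, near background in most of these mice) was higher by adjusted p alone, as were 2.42% of all. At D2 the counts were again 0 called and 5 at an unadjusted p under 0.05 (14.7% of all), of which Fas was lower, with 0.626% of all probes called, and Eda2r was again the 1 probe higher by adjusted p alone, as were 1.37% of all. Between neighbouring doses, 0 probes were called for D2 against D1 (0% of all probes, 2 at an unadjusted p under 0.05, as were 9.83% of all) and 0 for D3 against D2 (0.106% of all probes, 4 at an unadjusted p under 0.05, as were 11.7% of all). The linear trend called the probes of Tnfrsf10b and Tnfsf10, with 1.45% of all probes called, and by adjusted p alone 4 probes, with Eda2r and Fadd added, were higher (3.89% of all). Over the 10 tested probes the median log2 change was 0.23, 0.21 and 0.30 at D1, D2 and D3, and over all tested probes it was 0.01, 0.00 and 0.00. This median includes Eda2r and Fasl, which passed the filter through a single group. The counts by adjusted p alone at D1, D2 and in the trend include Eda2r, which passed the filter through D3, where it was high. They are given as a description.

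The sequences before the start of the genes are shown for 3 members that were higher at D3 by adjusted p, and for Fasl, which passed the test at no dose and whose window alone held a p53 half-site. They are the 250 bases upstream of the RefSeq start on the gene's own strand, 5′ to 3′ (RefSeq, assembly GRCm38.p6, which is not the build of the array annotation). An entry was found for 8 of the 9 genes, all but Tnfrsf10b. Capitals mark matches on either strand to 5 motifs searched: GGGCGG (the GC box bound by SP1), GCGTG (the core bound by the aryl hydrocarbon receptor), a pair of GAAA 2 bases apart (as in interferon response elements), the p53 half-site and the NF-kappaB site.

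Tnfsf10, chr3:27316827-27317076, plus strand: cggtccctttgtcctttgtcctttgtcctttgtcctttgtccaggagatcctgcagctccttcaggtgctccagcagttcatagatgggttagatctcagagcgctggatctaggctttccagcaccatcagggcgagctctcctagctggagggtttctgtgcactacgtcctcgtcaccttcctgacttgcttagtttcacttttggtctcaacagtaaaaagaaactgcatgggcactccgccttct
Fadd, chr7:144582442-144582691, minus strand: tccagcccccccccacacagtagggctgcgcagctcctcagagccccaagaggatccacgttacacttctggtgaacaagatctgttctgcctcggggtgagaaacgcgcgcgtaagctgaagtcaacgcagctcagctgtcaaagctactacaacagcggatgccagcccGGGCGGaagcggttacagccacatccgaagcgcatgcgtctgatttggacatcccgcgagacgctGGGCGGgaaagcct
Eda2r, chrX:97377210-97377459, minus strand: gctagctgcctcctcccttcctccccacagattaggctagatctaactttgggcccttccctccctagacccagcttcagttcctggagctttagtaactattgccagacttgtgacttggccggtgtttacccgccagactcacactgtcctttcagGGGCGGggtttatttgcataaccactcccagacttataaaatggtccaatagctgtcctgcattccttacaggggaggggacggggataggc
Fasl, chr1:161788496-161788745, minus strand: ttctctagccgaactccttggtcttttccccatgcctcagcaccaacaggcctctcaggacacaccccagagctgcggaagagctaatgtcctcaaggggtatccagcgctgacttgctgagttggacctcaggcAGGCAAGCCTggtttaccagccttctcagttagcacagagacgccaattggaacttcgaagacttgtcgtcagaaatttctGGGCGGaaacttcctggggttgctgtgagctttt

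The Tnfsf10 window held none of the 5 motifs. The GC box stood 79 and 14 bases before the start of Fadd, 92 bases before that of Eda2r and 34 bases before that of Fasl. It was found in 5 of the 8 windows (also Fas and Casp9) and in 32.7% of 32851 windows of the same length in the table. The p53 half-site of Fasl began 115 bases before the start, matched the motif on both strands and overlapped no match of another motif. Half-sites were found in 7.13% of all windows. GCGTG occurred in 2 of the 8 windows, those of Fas and Casp9, and in 28.2% of all. The GAAA pair (2.98% of all windows) and the NF-kappaB site (3.9%) occurred in none of the 8. These matches are letters in a short window and say nothing of whether a factor binds there or elsewhere in the gene.

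Around these 9 genes, a list of 56 other genes of the pathway was examined, of which 52 were tested with 63 probes. None was called at D3 by limma, where 23 probes had an unadjusted p under 0.05 (26.2% of all tested probes did), and the median log2 change was 0.12. By adjusted p alone 9 of the 63 probes were higher and 4 lower at D3, where 6.03% of all tested probes were higher and 6.37% lower, so the share of lower probes was close to that of all probes. Named after their values were seen, the higher ones included Pidd1, a p53-induced activator of caspase 2 (0.54 ± 0.09, adjusted p = 0.000719), and Apaf1, the scaffold on which caspase 9 is activated (0.29 ± 0.08, adjusted p = 0.0163). Ripk3 (0.42 ± 0.11, adjusted p = 0.0127) and Mlkl (0.27 ± 0.08, adjusted p = 0.039), which carry out necroptosis, were higher as well. The lower ones were Tnfrsf11b, a secreted decoy receptor that also binds TRAIL (-0.38 ± 0.09, adjusted p = 0.00812), the death receptor Tnfrsf25 (-0.51 ± 0.14, adjusted p = 0.0211), the deubiquitinase Cyld (-0.35 ± 0.10, adjusted p = 0.03) and the inhibitor Birc3 (-0.34 ± 0.10, adjusted p = 0.0415). None of the 8 probes tested for 7 of the 8 other ligands passed in either direction.

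Birc5, or survivin, an inhibitor of apoptosis made by dividing cells, was the gene of this list that was called. Its probes rose by 1.42 ± 0.19 (SE, adjusted p = 0.000547) and 0.68 ± 0.12 (adjusted p = 0.00332) at D1. At D2 the first was called (1.03 ± 0.18, adjusted p = 0.0041) and the second was not (0.29, adjusted p = 0.22). At D3 neither passed (0.58, adjusted p = 0.0531, and 0.20, adjusted p = 0.311). Of 9 marker probes of dividing cells, 5 were called higher at D1, 3 at D2 and 1 at D3. Of all tested probes 1.06%, 0.626% and 2.43% were called at these doses in either direction. The mean log2 ratio of the 9 probes per mouse ranged from -3.60 to -3.44 in D0 and from -3.03 to -2.54 in D1. It ranged from -3.23 to -2.79 in D2 and from -3.54 to -3.07 in D3. The Birc5 change was largest at the lowest dose, where neither Tnfrsf10b nor Tnfsf10 had been called. The difference between these dose patterns was not tested.

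**Figure D4:**
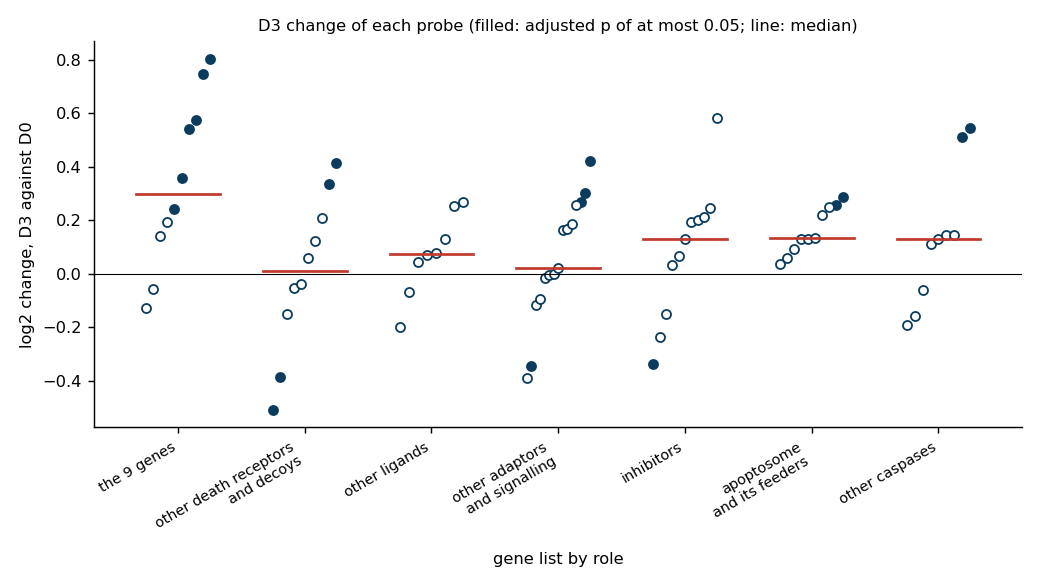
Log2 change at D3 against D0 of each tested probe, for the 9 genes and for the other genes of the pathway by role. Filled points have an adjusted p of at most 0.05, and red lines are medians. Probes of the 9 genes reach 0.80, those of the other lists stay between -0.51 and 0.58.

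Over the 18 mice, the genes whose log2 ratios resembled those of the called members most were listed as a description. For Tnfrsf10b these were Piezo1 (Pearson r = 0.881), Cptp (0.855) and Cpt1c (0.853), and over deviations from the group means r was 0.728, 0.707 and 0.591. For Tnfsf10 these were Spns2 (r = 0.893), Npdc1 (0.891) and Sema3c (0.888), with 0.843, 0.771 and 0.869 over the deviations. All points share their arrays and the common reference, and each r was the highest of all named probes tested.

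**Figure D5:**
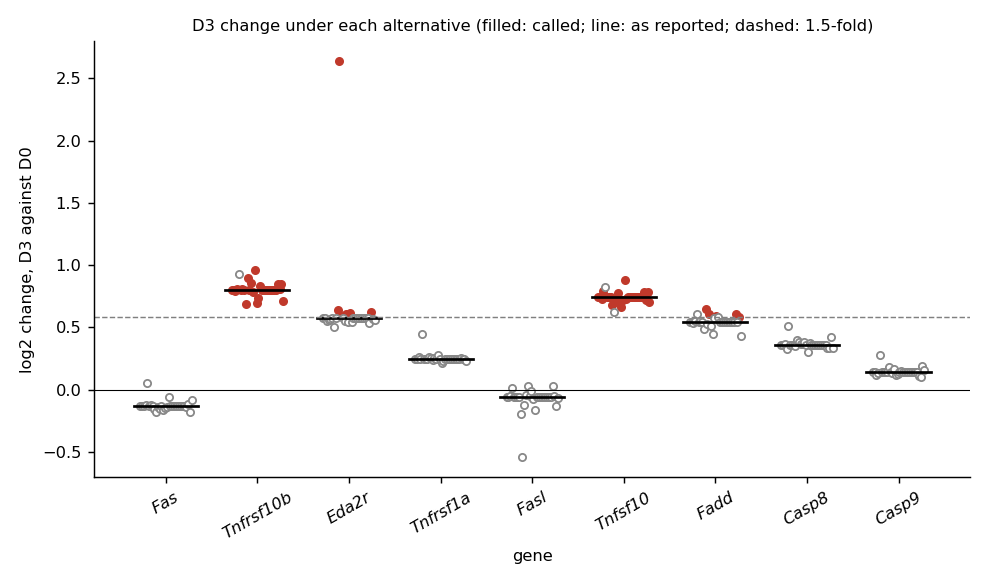
Log2 change at D3 against D0 of the brightest probe of each gene under each alternative processing or with 1 mouse left out. Filled points were called and open points were not, black lines are the values as reported, and the dashed line is 1.5-fold. Tnfrsf10b (0.69 to 0.96), Tnfsf10 (0.62 to 0.88), Fadd (0.43 to 0.65) and Casp8 (0.30 to 0.51) stay above 0 under every alternative drawn. The single high Eda2r point comes from background-subtracted signals, and its size is not read because the controls were not well above background.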

How the data were processed

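Lung RNA of 18 mice was measured on 19 two-colour arrays (mouse 35 of D3 had a pair, averaged as 1 mouse) against a common reference, without dye swap. Per the file headers, the scanner files hold median spot intensity values from Feature Extraction 11.0.1.1, not normalized, besides processed intensity values from which the software had removed background and dye bias. The series table deposited by the authors contains normalized log2 ratios, red over green, and its correlation with the ratios computed here was 0.995 to 0.998 per array. Median signals, with no background subtracted, went through loess within the array (span 0.3), without weight for the 3671 control spots among 62976 and for outlier spots, and spots of a probe were averaged. A probe was tested where red was well above background (in over 0.5 of its spots) in at least 4 mice of 1 group (30999 of 55681 probes; 80 lacked a value in some mice). No column was left unassigned.

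Of 22765 RefSeq-type identifiers, 21465 were matched to symbols in a RefSeq gene table (GRCm38.p6), whose coordinates are not those of the arrays. Comparisons used limma 3.58.1 (R 4.3.3) with 1 model over 4 groups, for each dose against D0, neighbouring doses and a linear trend, with Benjamini-Hochberg adjustment over all tested probes. A call needed an adjusted p of at most 0.05 and 1.5-fold. The fit was tested on simulated data. The probe with the brightest red signal stands for a gene. Red signals after between-array quantile scaling of the average intensity gave the bounds for probes below background, taken against the lowest signal well above background on each array. The number of arrays limits precision. The labels name separate mice, so p-values measure the spread between animals.

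The genes named were all members, pathway genes called at any dose and the 3 genes most correlated with each called member, to which 8 pathway genes past the adjusted p alone were added after their values were seen. Members, lists and tests were chosen with earlier results of these data known. The study's MAANOVA was not run. Alternatives were the processed signals, normexp (offset 50, on median signals, as the columns used here hold no mean signal), median centring, the deposited table, red alone, other filters, slide as a block, mouse 35 by single array, mouse 23 moved or left out, adjusted p alone, and each mouse left out.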

Additional observations from a re-analysis of the deposited data

Results flagged for a closer look

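Single mice stood far from the rest of their group in 4 of 40 combinations of probe and group, where the flag marks about 5% of groups by chance. For the brighter Tnfrsf1a probe, D1 mouse 22 was the highest of its group with a log2 ratio of 0.91 (the next mouse had 0.84), and D2 mouse 30 was the lowest of its group with 0.59 (next 0.73). For Casp8, D0 mouse 4 was the lowest control with -0.18 (next 0.04), and D3 mouse 34 was the lowest of its group with 0.19 (next 0.45).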

How the results depend on the processing

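Over 31 alternatives no called change turned its direction. The 31 hold the fit without D2 mouse 23 again among the single mice left out, and adjusted p alone reuses the fit as reported. The count of probes called at D3 was 2 as reported, 0 with median centring, and 6 by adjusted p alone, and the trend count was 2, 0 and 4. It was 3 at D3 with red alone, slide as a block and the second array of mouse 35, and 3 at D3 and in the trend with the processed signals, where Fadd (0.65 at D3, adjusted p = 0.00751) and Eda2r were called with Tnfrsf10b and Tnfsf10 was not. At D1 and at D2 the count was 0 as reported, 1 with the processed signals and 1 by adjusted p alone. Leaving out single mice gave counts of 2 to 4 at D3 (4 without D0 mouse 4, which added Eda2r and Fadd), 0 to 1 at D2 (1 without D0 mouse 4), 0 at D1 and 1 to 2 for the trend (1 without D3 mouse 35, where Tnfsf10 had an adjusted p of 0.0569). Median centring put the median change of all probes at 0.17, 0.12 and 0.06 at D1, D2 and D3, from 0.01, 0.00 and 0.00. The calls over all probes fell from 328, 194 and 754 to 12, 18 and 98. The share of higher ones among them moved from 56.1%, 69.6% and 49.6% to 100%, 88.9% and 82.7%. The cause was not tested. No paired analysis was possible because the groups share no animal numbers, so slide, which held all 4 groups, was the block that was fitted. Signals near background limit Eda2r and Fasl, and counts that include Eda2r are given as a description.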
